A study of Mus musculus with 12 samples.

Results

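The TNF receptor family on T cells was followed through 5 genes and 7 Affymetrix probe sets: Tnfrsf18 (GITR, 1422303_A_AT), Tnfrsf9 (4-1BB, 1421481_AT, 1428034_A_AT and 1460469_AT), Cd27 (1452389_AT), Tnfrsf1b (TNF receptor 2, 1418099_AT) and Fas (1460251_AT). The probe sets were chosen by gene name, with earlier results of these data known, and they are 7 of the 45037 non-control probe sets in the table. Names of the 7 come with the definition of the set. The tables used here do not pair other probe sets with genes, so cell type markers, pathway partners and the disrupted receptor gene were not analysed here.

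Values are log2 GCRMA values, 1 per probe set and array, from 12 arrays of sorted spleen CD4+ CD25hi T cells. The C57BL/6 groups came from normal mice. The other groups, called transgenic below, came from the transgenic line C57BL/6-2Rbeta-WT/thymus, which per the design text was crossed with IL-2Rbeta-deficient animals and whose T cells lack normal IL-2 receptor function. For the effector T cells, spleen cells were cultured for 48 hours with anti-CD3 before the sort, each array from 1 mouse, aged 10, 14 and 14 weeks (C57BL/6) and 15, 14 and 9 weeks (transgenic). Treg cells were sorted fresh from pools of 8, 8 and 15 C57BL/6 mice aged 12, 12 and 10 weeks, and of 4, 8 and 3 transgenic mice aged 33, 13 and 7 to 16 weeks. The comparisons ask which receptor transcripts differ when IL-2 receptor signalling is defective, in each population.

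TNF receptor family members are membrane proteins that bind trimeric ligands of the TNF family. GITR, 4-1BB, CD27 and TNF receptor 2 recruit TRAF adaptors and activate NF-kB, which supports survival and division of T cells. Fas carries a death domain and can start apoptosis through caspase-8. Resting Treg cells are known for high GITR and TNF receptor 2, and 4-1BB is induced on T cells by antigen receptor stimulation. IL-2 signals in T cells largely through the transcription factor STAT5.

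Stretches upstream of the annotated starts of the 4 genes with non-overlapping Treg strains are printed (values below). Among these genes only Tnfrsf9 passed the Treg strain test, by 1 probe set, and the strains of Tnfrsf18 lay only 0.02 apart. Each run holds the 250 bases before a start, from RefSeq on GRCm38.p6, 5′ to 3′ on the gene's strand, with capitals for the letters TTCNNNGAA (the STAT palindrome), the kappaB consensus and TGANTCA (the AP-1 site), searched on both strands. All 5 genes matched the promoter table, Tnfrsf9 with 2 starts.
Tnfrsf9, downstream start, chr4:150927749-150927998, plus strand: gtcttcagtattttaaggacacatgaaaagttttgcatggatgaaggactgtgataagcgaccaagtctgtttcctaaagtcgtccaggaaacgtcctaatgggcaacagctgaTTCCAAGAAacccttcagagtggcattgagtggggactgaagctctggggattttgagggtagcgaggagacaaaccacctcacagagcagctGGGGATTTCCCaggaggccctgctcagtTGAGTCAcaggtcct
Tnfrsf18, chr4:156026072-156026321, plus strand: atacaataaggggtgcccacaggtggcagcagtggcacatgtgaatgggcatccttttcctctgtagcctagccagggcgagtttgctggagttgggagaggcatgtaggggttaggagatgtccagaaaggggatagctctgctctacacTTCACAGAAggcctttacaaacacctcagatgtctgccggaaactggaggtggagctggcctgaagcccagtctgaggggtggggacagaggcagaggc
Tnfrsf1b, chr4:145246871-145247120, minus strand: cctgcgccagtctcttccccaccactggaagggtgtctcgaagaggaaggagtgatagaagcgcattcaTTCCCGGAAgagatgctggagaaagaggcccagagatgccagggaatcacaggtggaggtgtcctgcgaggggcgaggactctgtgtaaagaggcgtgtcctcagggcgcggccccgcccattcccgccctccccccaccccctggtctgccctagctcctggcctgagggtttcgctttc
Fas, chr19:34290409-34290658, plus strand: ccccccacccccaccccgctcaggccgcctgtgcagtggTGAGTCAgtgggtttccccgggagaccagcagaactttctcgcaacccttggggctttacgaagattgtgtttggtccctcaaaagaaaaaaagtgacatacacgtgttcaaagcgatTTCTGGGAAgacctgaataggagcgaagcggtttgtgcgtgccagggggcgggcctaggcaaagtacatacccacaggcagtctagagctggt

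The STAT letters were found in 4 of the 6 windows of the 5 genes, and in 7.02% of all 32851 promoter windows of the same length. They began 136 bases before the downstream start of Tnfrsf9 (TTCCAAGAA), 99 before that of Tnfrsf18 (TTCACAGAA), 181 before that of Tnfrsf1b (TTCCCGGAA) and 93 before that of Fas (TTCTGGGAA). The upstream start of Tnfrsf9 and the start of Cd27 had no match to any of the 3 motifs. A kappaB match stood in the downstream Tnfrsf9 window alone among the 6 (7.25% of all windows), where matches on both strands overlap to form GGGGATTTCCC. AP-1 letters stood in that window, 15 bases before the start, and in the Fas window, 211 bases before it (6.75% of all windows). These matches describe the letters only, and no binding was measured. The printed genes were picked by their Treg values, and a link between the matches and the strain differences was not tested.

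Before the comparisons, 2 features of the arrays bear on the receptor values. The lowest value of an effector array was between 0.296 and 0.325 and that of a Treg array between 0.942 and 0.957, and the sources used here do not say whether both populations were normalized together. Transgenic effector array 3 is labelled as purified from fresh spleen, although it is titled as T effector cells and listed with 48 hours of culture. On that array 55.5% of the 18271 tested probe sets lay outside the range of the other 5 effector arrays, against 25.4% to 32.9% for each of the others. Its transferrin receptor control probe set, a mark of dividing cells, read 8.02, between the other effector arrays (9.19 to 10.43) and the Treg arrays (4.39 to 7.66). Effector strain, interaction and transgenic population differences that use it are given with and without it. It also enters the spread estimate shared by all groups, and so the standard errors of the other comparisons. Treg strain tests are therefore given without it too. In bulk RNA, fewer cells that express a receptor and less of its RNA per cell cannot be told apart.

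Of the 7 probe sets, 6 reached the log2 value of 5 on at least 3 arrays that was asked for testing. The third Tnfrsf9 probe set, 1421481_AT, read 1.48 to 1.54 in effector cells and 1.89 to 1.93 in Treg cells, while the other Tnfrsf9 probe sets read at least 7.87 on every array. It lay near the floor of the arrays and was not tested. With no filter its strain changes were -0.0095 in Treg and -0.0052 in effector cells (limma adjusted p = 0.833 and 1), and Treg minus effector was 0.40 in C57BL/6 and 0.39 in transgenic mice (1.44e-09 and 1.61e-09), beside the different minimum values of the populations.

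**Figure D1:**
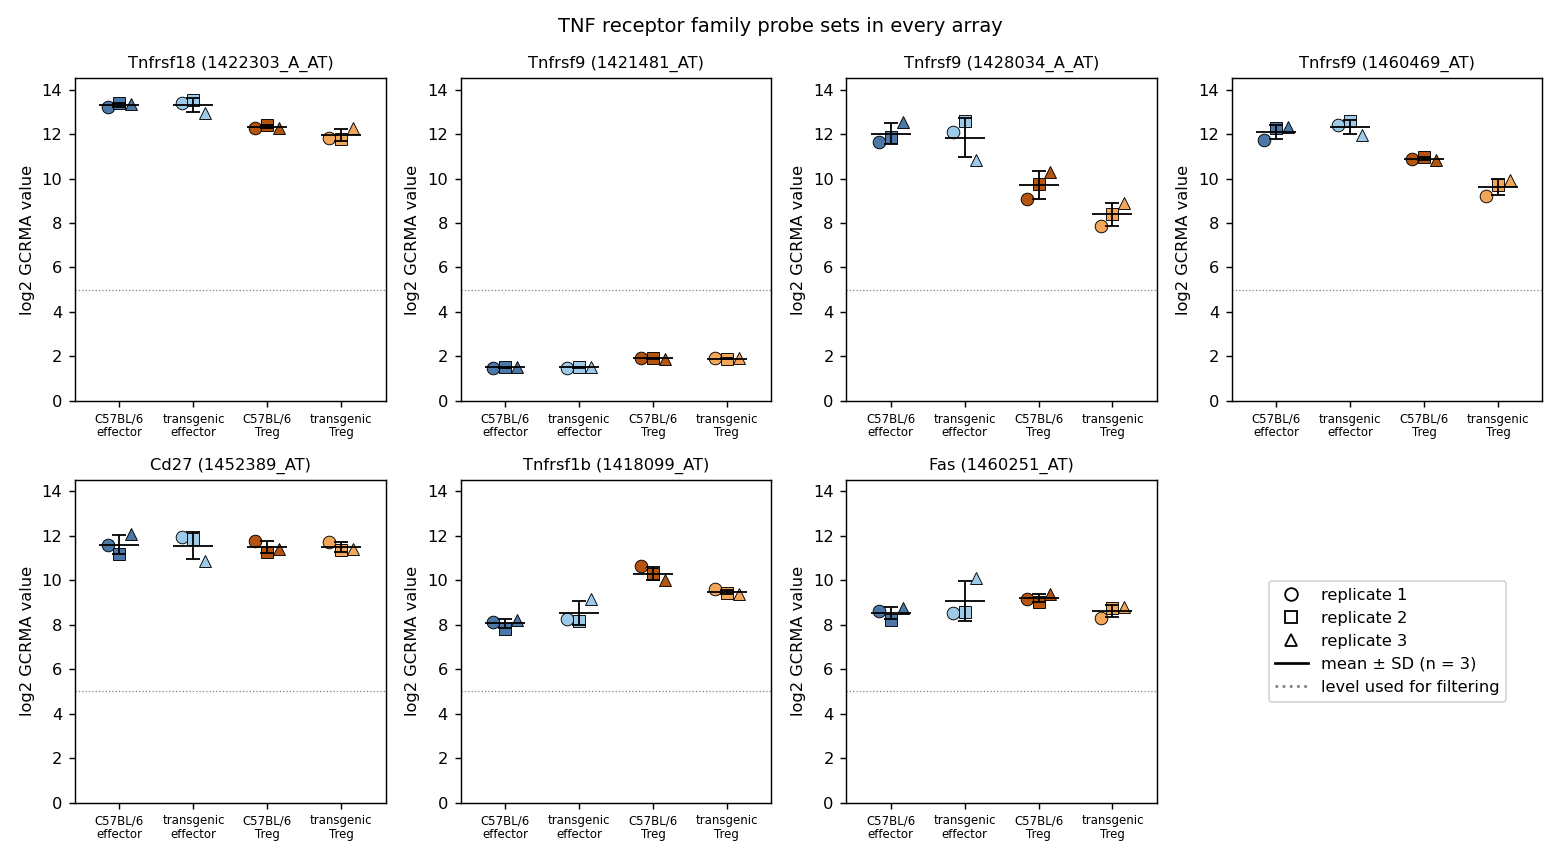
Log2 GCRMA value of each of the 7 probe sets on all 12 arrays, by group, with the mean and SD (n = 3) and a dotted line at the level used for filtering. The Treg strains separate for both measured Tnfrsf9 probe sets, Tnfrsf1b, Fas and Tnfrsf18, Cd27 overlaps everywhere, and 1421481_AT lies near the floor.

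In Treg cells, 4-1BB transcripts were lower in the transgenic mice, and GITR, TNF receptor 2 and Fas were lower on every transgenic array than on every C57BL/6 array without passing the test. CD27 did not separate the strains. The test, limma with Benjamini-Hochberg adjustment over all 18271 tested probe sets, called 1 of the 6 receptor probe sets lower and 0 higher, against 0.805% and 0.389% of all tested probe sets. At an unadjusted limma p under 0.05, 3 of the 6 were lower and 0 higher, against 4.92% and 4.46% of all tested probe sets.

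Tnfrsf9, the costimulatory receptor 4-1BB, gave 10.88, 10.96 and 10.82 in C57BL/6 Treg cells by probe set 1460469_AT, and 9.21, 9.72 and 9.94 in transgenic Treg cells. The groups lay 0.88 apart at their nearest arrays, with C57BL/6 tightly grouped and the oldest transgenic pool lowest. The mean fell from 10.89 ± 0.07 to 9.63 ± 0.37 (log2, SD, n = 3). The fitted change was -1.26 on the log2 scale (standard error 0.22), which is 2.39-fold lower (limma adjusted p = 0.0183). Leaving out transgenic effector array 3 gave a standard error of 0.20 (limma adjusted p = 0.0134). The call was lost when only the 6 Treg arrays were fitted (limma adjusted p = 0.0883), and without C57BL/6 array 2 (0.0839), transgenic array 1 (0.0691) or transgenic array 2 (0.0525), while the change stayed between -1.42 and -1.05 with any one array left out. Same-numbered Treg arrays deviated together for numbers 1 and 3 (correlations of 0.58 and 0.51), and hardly for number 2 (0.10). A replicate block in both populations gave a limma adjusted p of 0.0559. With that block in Treg cells alone, a fit added after seeing the data, it was 0.0213.

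Probe set 1428034_A_AT of the same gene read 9.06, 9.76 and 10.29 on C57BL/6 and 7.87, 8.40 and 8.89 on transgenic Treg arrays. The groups lay close, with C57BL/6 array 1 just above transgenic array 3, and each strain spread widely. The fitted log2 change was -1.32 (standard error 0.46), near that of 1460469_AT, but it did not pass (limma adjusted p = 0.306). With transgenic effector array 3 left out the standard error was 0.36, and it did not pass either (limma adjusted p = 0.149). With array weights, where 6.74% of all tested probe sets were called, it passed at -1.23 (limma adjusted p = 0.0311). Its larger standard error separates the calls, since only 1.05% of tested probe sets had a change as low, against 1.13% for 1460469_AT.

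Tnfrsf1b encodes TNF receptor 2, which binds TNF and supports Treg expansion. It read 10.62, 10.27 and 10.00 on C57BL/6 and 9.59, 9.43 and 9.38 on transgenic Treg arrays. All 3 transgenic arrays lay within 0.21 of each other and below the lowest C57BL/6 array. The means were 10.30 ± 0.31 and 9.47 ± 0.11 (SD, n = 3). The fitted log2 change, -0.83 with standard error 0.26, did not pass (limma adjusted p = 0.234). With transgenic effector array 3 left out the standard error was 0.17, and the change still did not pass (limma adjusted p = 0.0543). With array weights, where 6.74% of all tested probe sets were called, the change passed (limma adjusted p = 0.00777).

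Fas, the death receptor, read 9.14, 9.03 and 9.38 on C57BL/6 and 8.32, 8.75 and 8.78 on transgenic Treg arrays. Again the groups did not overlap, by a gap of 0.25 between C57BL/6 array 2 and transgenic array 3. Its log2 change was -0.57, with a 95% interval from -1.36 to 0.22 (limma adjusted p = 0.75). With transgenic effector array 3 left out the interval ran from -0.98 to -0.16, without passing the test (limma adjusted p = 0.24).

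Tnfrsf18 encodes GITR, one of the receptors by which Treg cells are recognised. It read 12.28, 12.42 and 12.29 on C57BL/6 and 11.83, 11.80 and 12.27 on transgenic Treg arrays. Transgenic array 3 lay only 0.02 below the lowest C57BL/6 array, so the non-overlap hangs on this small gap. The log2 change was -0.36, with a 95% interval from -0.74 to 0.01 (limma adjusted p = 0.551). With transgenic effector array 3 left out the interval ran from -0.66 to -0.07, without passing the test (limma adjusted p = 0.313).

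Cd27, the receptor for CD70 on naive and memory T cells, read 11.78, 11.29 and 11.42 on C57BL/6 and 11.74, 11.37 and 11.39 on transgenic Treg arrays. The values interleave, and same-numbered arrays were close. Both means were 11.50, and the 95% interval of the log2 change ran from -0.66 to 0.66 (limma adjusted p = 1), which does not show that the strains were alike.

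Counted together, 5 of the 6 probe sets had non-overlapping Treg strains with the transgenic arrays lower, against 7.18% of all tested probe sets. The median change of the 6 was -0.70, beside 0.03 over all tested probe sets. These 5 are the probe sets of the genes whose upstream windows are printed above. The mean of the spike transcripts added to each sample was 12.92, 12.02 and 10.93 for C57BL/6 Treg cells and 10.93, 10.88 and 11.16 for transgenic Treg cells, higher on 2 of 3 C57BL/6 arrays, and their part in these differences was not tested. The provider's sample codes place C57BL/6 arrays 1 and 2 and transgenic arrays 1 and 2 in 1 run of consecutive codes. What a run of codes stands for is not stated in the sources used here. With that run as a block, which rests on those 4 arrays, the log2 changes were -1.45 for 1460469_AT (limma adjusted p = 0.0389), -1.28 for 1428034_A_AT (0.48), -0.93 for Tnfrsf1b (0.35), -0.55 for Fas (0.846) and -0.53 for Tnfrsf18 (0.324).

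**Figure D2:**
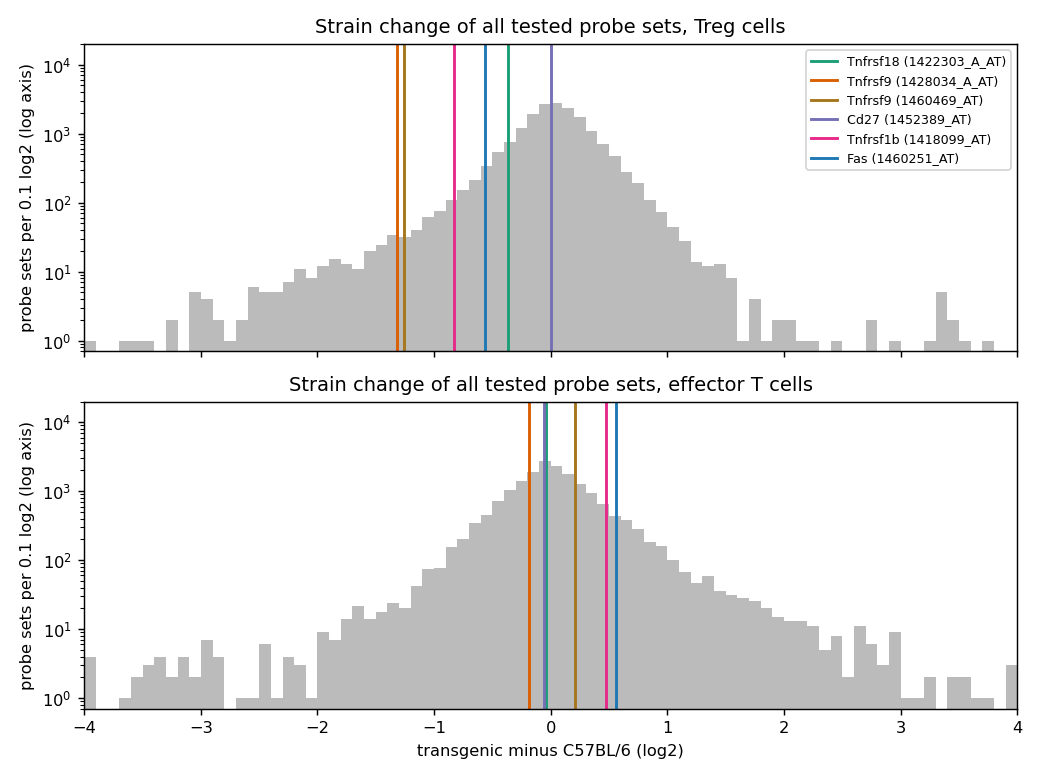
Histograms of the transgenic minus C57BL/6 change (log2) over all tested probe sets in Treg cells (top) and effector cells (bottom), with a logarithmic count axis, drawn from -4 to 4, and a line for each of the 6 receptor probe sets. In Treg cells 5 of the lines lie left of the centre, the Tnfrsf9 pair at -1.32 and -1.26, while in effector cells the 6 lie between -0.18 and 0.56.

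In anti-CD3-activated effector cells none of the 6 receptor probe sets passed the strain test in either direction (limma, 0 of 6 at an adjusted p under 0.05), against 1.92% of all tested probe sets higher and 1.08% lower. At an unadjusted limma p under 0.05 the count was also 0 of 6, against 8.66% higher and 6.8% lower. The strains overlapped for each of the 6, where 22.8% of all tested probe sets did not overlap. Transgenic array 3 lay outside the range of the other 5 effector arrays for 5 of the 6, below it for Tnfrsf18, Cd27 and 1428034_A_AT and above it for Tnfrsf1b and Fas. Each of the 6 deviated from the other transgenic effector arrays in the direction of the Treg cells, as did 56.0% of all tested probe sets. Transgenic effector arrays 1 and 2 are subtracted in both the deviation and the Treg direction. Matching signs are thus favoured in advance, and no conclusion is drawn from them. Cd27 and Fas went past the Treg cells, Cd27 at 10.84 below every Treg array (11.29 to 11.78) and Fas at 10.11 above every one (8.32 to 9.38).

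**Figure D3:**
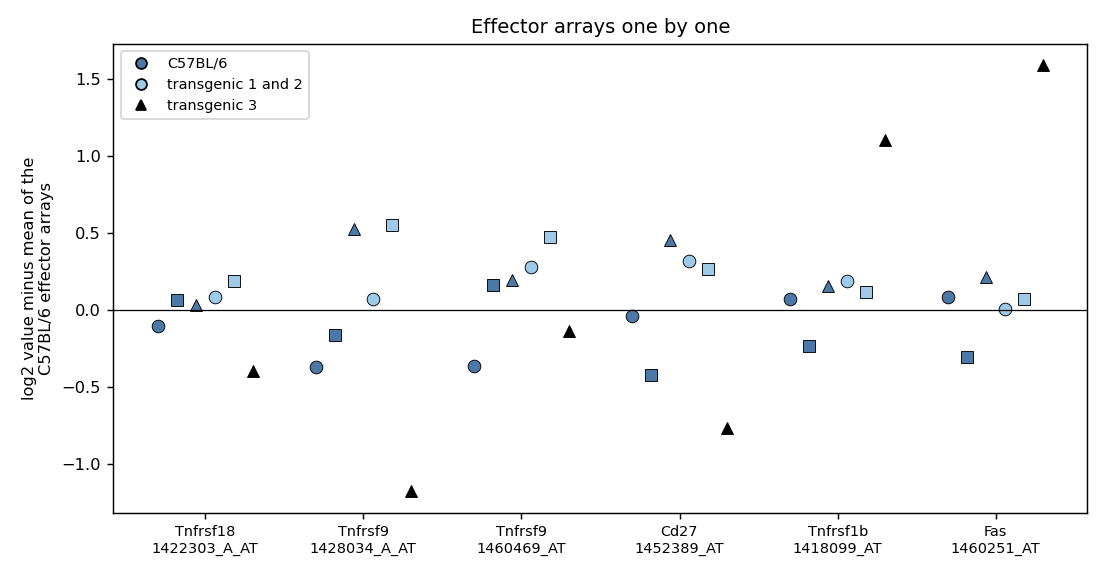
Log2 value of each receptor probe set on the 6 effector arrays, minus the mean of the 3 C57BL/6 effector arrays (dark blue C57BL/6, light blue transgenic, with circles, squares and triangles for arrays 1, 2 and 3). The black triangle, transgenic array 3, stands below the other arrays for Tnfrsf18, 1428034_A_AT and Cd27 and above them for Tnfrsf1b and Fas.

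By 1460469_AT, Tnfrsf9 read 11.75, 12.28 and 12.31 on C57BL/6 and 12.39, 12.59 and 11.98 on transgenic effector arrays. Transgenic arrays 1 and 2 lay above all C57BL/6 arrays and array 3 within their range. The fitted log2 change was 0.21, standard error 0.22 (limma adjusted p = 0.774), and 0.38 without transgenic array 3 (0.53). Probe set 1428034_A_AT read 11.65, 11.86 and 12.55 against 12.09, 12.57 and 10.85, and its change turned from -0.18 to 0.31 when array 3 was left out.

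Fas read 8.60, 8.21 and 8.73 on C57BL/6 and 8.52, 8.59 and 10.11 on transgenic effector arrays. A single array made the difference, since the log2 change of 0.56 (limma adjusted p = 0.533) became 0.04 without it, with a 95% interval from -0.42 to 0.50. Tnfrsf1b read 8.13, 7.83 and 8.21 against 8.25, 8.17 and 9.16. Its change of 0.47 (limma adjusted p = 0.428) likewise became 0.15 without transgenic array 3.

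Tnfrsf18 read 13.22, 13.39 and 13.36 on C57BL/6 and 13.41, 13.51 and 12.93 on transgenic effector arrays. Its log2 change was -0.04 (limma adjusted p = 0.988) and 0.14 without array 3. Cd27 read 11.57, 11.18 and 12.07 against 11.93, 11.87 and 10.84, a change of -0.06 (limma adjusted p = 0.993) that became 0.29 without array 3. Without that array 2 of the 6 probe sets, Tnfrsf18 and Tnfrsf9 (1460469_AT), did not overlap between the strains, both higher in the transgenic arrays, where 39.4% of all tested probe sets did not.

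**Figure D4:**
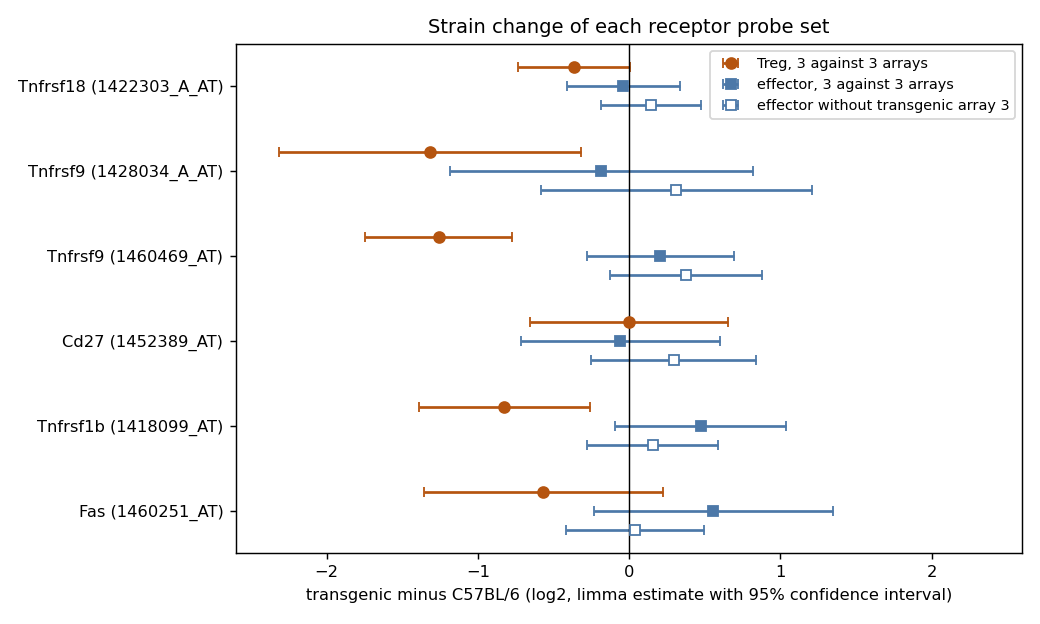
Transgenic minus C57BL/6 change (log2, limma estimate with 95% confidence interval) of the 6 tested probe sets in Treg cells (circles), effector cells (filled squares) and effector cells without transgenic array 3 (open squares). The interval of 1460469_AT in Treg cells runs from -1.75 to -0.77 and does not meet its effector intervals.

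Whether the strain change itself differed between the populations was tested as an interaction. Tnfrsf9 by 1460469_AT passed: its strain change was lower in Treg than in effector cells by 1.47 on the log2 scale, an interaction of -1.47, standard error 0.31 (limma adjusted p = 0.0361), against 1.52% of all tested probe sets with a lower strain change in Treg cells. Without transgenic effector array 3 it was -1.64 (limma adjusted p = 0.0225). The call rests near its threshold, since it was lost in 9 of the 12 fits that left out 1 array, with an adjusted p of up to 0.106. It was lost too with each array centred on its median (0.0515), without a filter (0.0862) and with the replicate block in both populations (0.0689). The block in Treg cells alone, added after seeing the data, gave 0.0402.

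The other 5 probe sets did not pass this test, which called 2.26% of all tested probe sets in either direction. Their interactions were -1.13 for 1428034_A_AT (limma adjusted p = 0.496), -1.30 for Tnfrsf1b (0.11), -1.12 for Fas (0.365), -0.33 for Tnfrsf18 (0.622) and 0.06 for Cd27 (0.973). Without transgenic effector array 3 they were -1.63 for 1428034_A_AT, -0.98 for Tnfrsf1b, -0.61 for Fas, -0.51 for Tnfrsf18 and -0.29 for Cd27, and none passed (limma adjusted p between 0.0984 and 0.798). Those of 1428034_A_AT and Tnfrsf18 lay farther from 0 than with the array, those of Tnfrsf1b and Fas nearer to it, and that of Cd27 changed sign.

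Between the populations, in the main fit, 4-1BB and GITR transcripts were higher in activated effector cells and TNF receptor 2 in Treg cells, in both strains. Over all tested probe sets 73.8% differed between the populations of C57BL/6 mice (31.7% higher and 42% lower in Treg cells) and 70% between those of transgenic mice (30% and 40%), so a call here is common. The limma test called 4 of the 6 receptor probe sets in each strain, 1 higher and 3 lower in Treg cells. That share is no larger than the share of all tested probe sets. Regardless of sign, the median log2 difference of all tested probe sets was 1.21 in C57BL/6 and 1.09 in transgenic mice. The populations did not overlap for 5 of the 6 in C57BL/6 mice, against 76.7% of all tested probe sets, and for 4 of the 6 in transgenic mice, against 73.9%. Population cannot be told apart from culture, the run of sample codes, pooling of mice and the different minimum values. Across all tested probe sets the median of Treg minus effector was -0.26 in C57BL/6 and -0.21 in transgenic mice, and the differences below are also given relative to it.

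Tnfrsf9 was lower in Treg than in effector cells by 2.32 (1428034_A_AT) and 1.23 (1460469_AT) on the log2 scale in C57BL/6 mice (limma log2 changes of -2.32 and -1.23, adjusted p = 0.000701 and 0.000382). They were -3.45 and -2.69 in transgenic mice (limma adjusted p = 3.72e-05 and 8.12e-07), and -3.95 and -2.86 without transgenic effector array 3. With all arrays, and relative to the median of all probe sets, the 4 differences were -2.06, -0.97, -3.24 and -2.48. When all 12 arrays were quantile normalized together, 1460469_AT in C57BL/6 mice differed by -0.49 and was no longer called (limma adjusted p = 0.0713). By group mean on 1460469_AT the order was transgenic effector (12.32 ± 0.31), C57BL/6 effector (12.11 ± 0.31), C57BL/6 Treg (10.89 ± 0.07) and transgenic Treg cells (9.63 ± 0.37), and only the effector groups overlapped.

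Tnfrsf18 averaged 13.32 ± 0.09 and 13.28 ± 0.31 in C57BL/6 and transgenic effector cells, and 12.33 ± 0.08 and 11.97 ± 0.26 in the Treg cells (log2, SD, n = 3). It thus ran in the same order of populations as Tnfrsf9. Treg minus effector was -0.99 in C57BL/6 (limma adjusted p = 0.000249) and -1.32 in transgenic mice (2.99e-05), or -0.73 and -1.11 relative to the median. Without transgenic effector array 3 the latter difference was -1.50 before the median was taken off. With quantile normalization of all arrays the C57BL/6 difference was -0.32 (limma adjusted p = 0.102), and the transgenic one was -0.70 (0.00309).

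Tnfrsf1b went the other way, at 8.06 ± 0.20 and 8.53 ± 0.55 in C57BL/6 and transgenic effector cells and 10.30 ± 0.31 and 9.47 ± 0.11 in Treg cells. The Treg groups lay above every effector array, including transgenic array 3. The difference was 2.24 in C57BL/6, or 4.72-fold (limma adjusted p = 1.09e-05), and 0.94 in transgenic mice, or 1.92-fold (0.0065). Without transgenic effector array 3 the latter was 1.26. Relative to the median of all probe sets the differences were 2.50 and 1.15.

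For Fas the population difference did not pass the test in either strain. It averaged 9.18 ± 0.18 in C57BL/6 Treg, 9.07 ± 0.90 in transgenic effector, 8.62 ± 0.26 in transgenic Treg and 8.52 ± 0.27 in C57BL/6 effector cells. The C57BL/6 populations did not overlap, with a Treg minus effector difference of 0.67 (limma adjusted p = 0.112) that passed without transgenic effector array 3 (0.00694), where its standard error was 0.18 in place of 0.36. It passed as well with the 6 arrays alone (0.0172), with array weights (0.0132) and with quantile normalization (1.12, limma adjusted p = 0.0143). In transgenic mice the difference was -0.46 (limma adjusted p = 0.278), and 0.06 without that array.

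Cd27 had group means of 11.61 ± 0.44, 11.55 ± 0.61, 11.50 ± 0.26 and 11.50 ± 0.21 in C57BL/6 effector, transgenic effector, C57BL/6 Treg and transgenic Treg cells. All 4 groups overlapped. Treg minus effector was -0.11 with a 95% interval from -0.76 to 0.55 in C57BL/6 (limma adjusted p = 0.756) and -0.05 with an interval from -0.71 to 0.61 in transgenic mice (0.893). Without transgenic effector array 3 the transgenic difference was -0.40 (limma adjusted p = 0.165). The sign depended on the scale, since quantile normalization gave 0.62 and 0.61 (limma adjusted p = 0.0749 and 0.0834).

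The 2 measured Tnfrsf9 probe sets were compared array by array. On the effector arrays 1428034_A_AT minus 1460469_AT ranged from -0.42 to 0.24, except on transgenic array 3, where it was -1.13. On C57BL/6 Treg arrays 1, 2 and 3 it was -1.81, -1.20 and -0.54, and on the transgenic ones -1.35, -1.32 and -1.06. The probe sets thus differ in how far they fall from effector to Treg cells, on array 3 and among the C57BL/6 Treg arrays. Their Treg strain changes lay within 0.06 of each other, beside standard errors of 0.46 (1428034_A_AT) and 0.22 (1460469_AT).

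Likeness of profiles was taken as the root mean square difference over the 12 arrays after each probe set was centred on its own mean. The 2 Tnfrsf9 probe sets differed by 0.62 (log2), and 1460469_AT was 73rd of 18270 in likeness to 1428034_A_AT, while in the other direction 1428034_A_AT was 1378th in likeness to 1460469_AT. Tnfrsf18 and 1460469_AT differed by 0.54, the smallest difference among the member pairs. Yet 1460469_AT was only 5482nd of 18270 in likeness to Tnfrsf18, and Tnfrsf18 was 484th in likeness to 1460469_AT. Tnfrsf1b and 1428034_A_AT differed by 2.38, the widest of the 15 pairs. With each population centred separately, the closest pair was Tnfrsf1b and Fas, at 0.29. This value includes transgenic effector array 3, where they stood 0.95 and 1.55 above the mean of transgenic arrays 1 and 2. It was not taken without that array. Outside the members, the nearest tested probe set was 1455101_AT for Tnfrsf9 by 1460469_AT (0.23) and 1434273_AT for Tnfrsf1b (0.21), and the 3 nearest to each of the 5 genes, with 1460469_AT for Tnfrsf9, lay within 0.16 to 0.26.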

How the data were processed

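Gene expression was measured on 12 Affymetrix arrays. The deposited log2 values came from the authors' GCRMA summary of the probe intensities, per the submitters' processing notes, with a version not given in the sources used here. Per the labels' protocols, 1 round of in vitro transcription amplified the RNA. Precision is limited by the number of arrays.

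After 64 control probe sets were removed, 18271 of 45037 had a log2 value of at least 5 on 3 or more arrays and were tested. In limma 3.58.1 (R 4.3.3), 1 linear model with a mean for each of the 4 groups used every array (eBayes with trend). A probe set is called at a Benjamini-Hochberg adjusted p under 0.05. The design text describes the samples of a group as separate biological replicates. For a single value, 3 arrays against 3 allow a two-sided exact permutation p of 0.1 at the lowest. In a simulation that changed 200 of 18271 probe sets, the fit recovered 44% of 2-fold and 82% of 4-fold changes in the Treg comparison, and 14% of 2-fold changes in the interaction. Of its 135 calls in the Treg comparison 9 were false. The simulated noise was independent between arrays, without shared Treg deviations or an outlying array, so recovery in the real data can differ.

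Replicate numbers follow the titles. Deviations from the group means, over the tested probe sets, correlated between same-numbered C57BL/6 and transgenic Treg arrays at 0.58, 0.10 and 0.51. Each lay above the minimum of 0.1, so these were read as paired, from the data and not the labels. The main fit has no term for this pairing, and the replicate blocks are alternatives to it. With the block in both populations, 1460469_AT had a limma adjusted p of 0.0559 between the Treg strains, against 0.0183 in the main fit. C57BL/6 Treg array 3 and transgenic Treg array 2, with unlike numbers, correlated at 0.11, so the pairing of the arrays numbered 2 is uncertain. For effector arrays 1, 2 and 3 the deviations correlated at 0.21, -0.34 and -0.34, and these arrays were not read as paired.

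All 7 receptor probe sets are named, the 6 tested ones in each comparison, and the most similar profiles are sought for 1 probe set of each gene, the one with the highest mean. Other gene lists and marker genes could not be matched to probe sets and were not tested. The receptors and lists were chosen with earlier results of these data known. Alternatives were other normalizations, filters, variance models, array weights, subsets of arrays and blocks. Figures were drawn with matplotlib 3.10.9.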

Additional observations from a re-analysis of the deposited data

Results flagged for a closer look

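The strain change of Tnfrsf9 by 1460469_AT differed between the populations by the interaction test, at -1.47 on the log2 scale (limma adjusted p = 0.0361): the transgenic mean was lower in Treg cells (-1.26) and not in effector cells (0.21). The second measured Tnfrsf9 probe set gave -1.13 and did not pass (limma adjusted p = 0.496).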

How the results depend on the processing

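Of the 30 receptor differences tested, 10 were called. None of these 10 turned in any alternative run, and 6 kept their call in all of them. Of the 20 not called, 8 changed sign in at least 1. Between the Treg strains, the main fit called 1 receptor probe set and 1.19% of all tested probe sets. The receptor count became 0 with the 6 Treg arrays alone (0.405% of all) and with the replicate block (1.01%). With array weights it became 3, beside 6.74% of all. The weights of C57BL/6 Treg arrays 1, 2 and 3 were 0.45, 5.02 and 0.24. Leaving out 1 array gave 0 to 1 in Treg cells, 0 to 0 in effector cells, 4 to 5 and 4 to 4 between the populations of C57BL/6 and transgenic mice, and 0 to 1 for the interaction. The interaction count was 1 in the main fit, beside 2.26% of all tested probe sets. It became 0 when arrays were centred on their medians (2.04% of all), without a filter (0.648%) and with the replicate block (2.03%). With array weights it became 4, beside 13.8% of all. In effector cells the strain count was 0 in every alternative run.

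Differences that turned were all uncalled. For Cd27 the Treg strain change became 0.078 with median centring, 0.11 with array weights and 0.017 when the run of sample codes was a block. Its effector strain change became 0.26 with weights. Its population difference became 0.62 (C57BL/6) and 0.61 (transgenic) with quantile normalization and 0.055 (transgenic) with median centring, and its interaction -0.0097 with quantile normalization and -0.15 with weights. The effector strain change of Tnfrsf18 became 0.0175 with quantile normalization and 0.17 with weights, and that of 1428034_A_AT 0.47 with weights. The transgenic population difference of Fas became 0.0104 with weights. Without transgenic effector array 3 and transgenic Treg array 1 together, an alternative chosen after seeing the data, the effector strain changes were 0.14 for Tnfrsf18, 0.31 for 1428034_A_AT and 0.29 for Cd27, the transgenic population difference of Fas 0.21, and the Cd27 interaction -0.41. The block in Treg cells alone was also added after seeing the data.

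With 1 array left out, Cd27 ranged from -0.12 to 0.14 (Treg strains), -0.27 to 0.29 (effector strains), -0.32 to 0.12 and -0.40 to 0.14 (populations of C57BL/6 and transgenic mice) and -0.29 to 0.27 (interaction). Effector strain changes ranged from -0.15 to 0.14 for Tnfrsf18 and -0.55 to 0.31 for 1428034_A_AT, and the transgenic population difference of Fas from -0.73 to 0.062. The cause was not tested for any of these.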
